A study of Mus musculus with 2 samples.

Results

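The cytosolic ribosomal protein genes are described here by the openness of their chromatin in mouse liver nuclei, where they serve as a housekeeping standard. Members were the protein-coding genes of the GRCm38 gene table whose symbol is Rpl or Rps followed by a digit, Rplp0 to Rplp2, or Rpsa. Rps6k kinases and symbols with -ps were left out. The rule found 89 of 21887 protein-coding genes. Of these, 77 are the canonical genes (43 of the large subunit, 31 of the small subunit and the 3 stalk genes), 11 are paralogs or retrocopies, and 1 (Rps19bp1) encodes a protein that binds a ribosomal protein. The symbol rule misses further ribosome components, of which Fau and Rack1 were followed beside the members.

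Single-nucleus ATAC-seq, in which a transposase cuts open chromatin, was run on F4/80-selected cells from the livers of 2 untreated male littermates aged 8 to 10 weeks, 1 Spta wt/wt and 1 Spta sph/sph mouse. The sph allele is a spherocytosis mutation of alpha-spectrin, a protein of the red cell skeleton. No label used here ties a barcode suffix to a genotype, so values are given for library 1 and library 2 and no genotype is compared. With 1 mouse and 1 library per genotype there is no test across samples, and every interval covers counting error only.

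Library 1 had 609 kept cells and library 2 had 562, with medians of 13772 and 13316 fragments per cell. No barcode was shared between the kept cells. The libraries differed in quality, with a median of 72.5% of a cell's fragments in peaks in library 1 and 53.9% in library 2. Pile-ups of fragments within 20 kb in single cells took 0.653% of the fragments of library 1 and 12.1% of those of library 2. Clusters with the markers of macrophages of the liver (Kupffer-like, 322 and 179 cells) and of its vessel lining (endothelial-like, 125 and 136 cells) were large enough to compare in both libraries. Most Kupffer-like cells of library 1 lay in clusters 2 and 7 (218 and 90 cells), and most of those of library 2 in cluster 3 (175 cells). Cd163, Vsig4, C1qa and C1qc were among the 10 leading genes of cluster 2 and Marco among those of cluster 3, whereas cluster 7 had no marker among its leading genes. The library 1 cells of cluster 7 were also deeper, with a median of 27805.5 fragments against 13583 in cluster 2. For the Kupffer list, cluster 2 scored 1.37, cluster 7 scored 1.13 and cluster 3 scored 0.59. The Kupffer-like values of library 2 thus rest mostly on the cluster with the lowest of these scores.

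Cytosolic ribosomal proteins join ribosomal RNA in the small and large subunits that translate messenger RNA in every cell. The large subunit holds the peptidyl transferase centre and the exit tunnel, and the small subunit holds the decoding site. The P-stalk proteins Rplp0, Rplp1 and Rplp2 recruit translation factors. Their promoters are known as broadly open, often without a TATA box, with sites for ETS factors such as GABPA and for YY1. Their messenger RNAs start with a pyrimidine tract that links their translation to mTOR. A few members have copies of restricted use, such as Rpl3l of striated muscle and Rpl10l and Rpl39l of the testis.

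The letters around the start are shown for members on which the results below turn, from RefSeq on GRCm38.p6, from 80 bases before to 30 bases after the start. Rps19 and Rpl13a had the highest signal of the small and the large subunit, Rps18 had the most ETS letters of the 5, and Rpl37 and Rps21 are further highly open members. In these 5 the capitals mark GGAAGT or CCGGAA, the core letters of ETS sites, on either strand. The ranges are chr7:24884512-24884621 (plus strand) for Rps19, chr7:45128716-45128825 (minus) for Rpl13a, chr17:33955636-33955745 (minus) for Rps18, chr15:5116533-5116642 (plus) for Rpl37 and chr2:180257299-180257408 (plus) for Rps21.
Rps19: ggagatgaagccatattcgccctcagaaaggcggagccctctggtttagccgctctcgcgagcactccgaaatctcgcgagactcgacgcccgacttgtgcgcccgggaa
Rpl13a: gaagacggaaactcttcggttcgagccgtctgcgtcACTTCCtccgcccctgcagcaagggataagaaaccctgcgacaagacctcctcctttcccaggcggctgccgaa
Rps18: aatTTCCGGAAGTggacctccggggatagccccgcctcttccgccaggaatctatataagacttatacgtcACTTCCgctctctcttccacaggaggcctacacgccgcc
Rpl37: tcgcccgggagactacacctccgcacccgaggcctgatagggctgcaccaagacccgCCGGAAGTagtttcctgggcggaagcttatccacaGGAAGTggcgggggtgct
Rps21: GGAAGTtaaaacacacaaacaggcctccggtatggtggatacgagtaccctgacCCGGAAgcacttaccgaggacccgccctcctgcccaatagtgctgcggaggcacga

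Rps27 and its retrocopy Rps27rt are shown because the copy carries the letters of the parent's transcript but not those of its promoter. Capitals mark the longest run the 2 entries share, of 38 bases, which begins at base 2 of Rps27 and base 1 of Rps27rt, counted from the start, and goes on past the stretch printed. The ranges are chr3:90213619-90213728 (minus) for Rps27 and chr9:114982710-114982819 (minus) for Rps27rt.
Rps27: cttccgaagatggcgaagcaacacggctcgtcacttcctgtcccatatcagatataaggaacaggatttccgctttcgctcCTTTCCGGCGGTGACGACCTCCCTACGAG
Rps27rt: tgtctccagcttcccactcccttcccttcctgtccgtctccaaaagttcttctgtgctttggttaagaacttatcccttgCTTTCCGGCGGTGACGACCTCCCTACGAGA

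Nearly all canonical ribosomal protein genes were open at their starts. Within 1 kb on each side of the start, the median canonical gene had 28.3 CPM (fragments of the gene per 1e6 fragments of the kept cells) in library 1 and 21.4 CPM in library 2, against 5.51 and 3.63 CPM for all protein-coding genes. The start level of 75 of the 77 canonical genes was above the all-gene median in both libraries, and that of 52 (library 1) and 58 (library 2) was above the upper quartile of all genes. These windows have 1 length, so levels can be compared between genes. The 43 large subunit genes had medians of 26.5 and 19.5 CPM, the 31 small subunit genes 30.3 and 22.1 CPM, and the 3 stalk genes 30.3 and 22.5 CPM, so the roles lay close together.

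**Figure D1:**
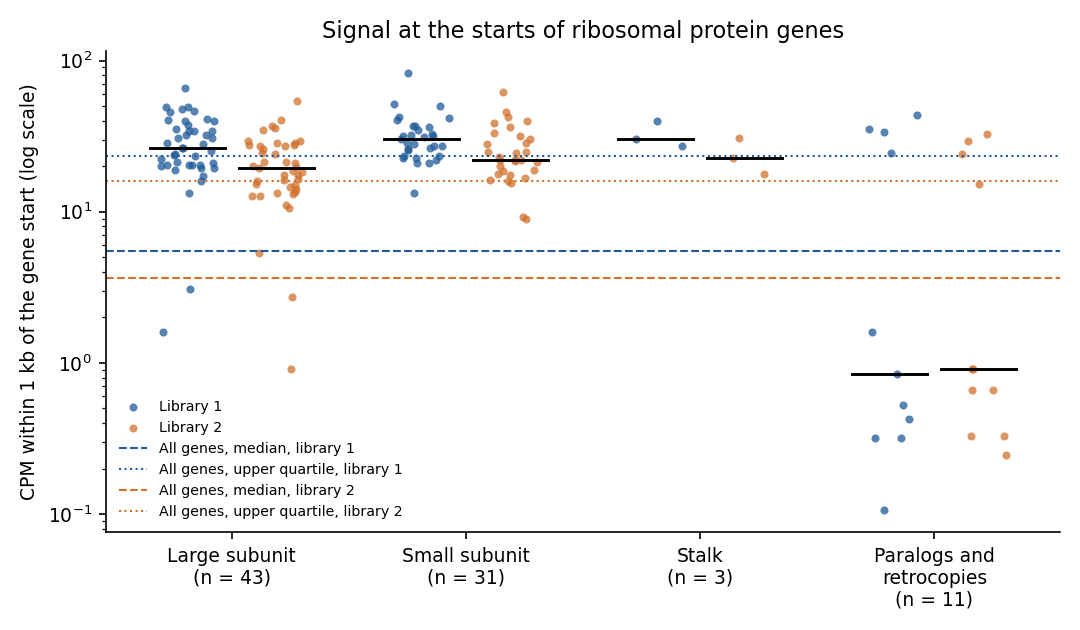
Each point is 1 gene, with its CPM within 1 kb of the gene start on a log axis, by role and library; black bars are medians, and dashed and dotted lines mark the median and upper quartile of all protein-coding genes. All but 2 canonical genes lie above the all-gene medians of 5.51 and 3.63 CPM, and the paralogs and retrocopies fall into a high and a low group.

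Rps19, a small subunit protein needed for the maturation of its subunit (chr7:24884592-24889811), had the highest start level, with 785 fragments or 83.2 CPM (77.5 to 89.2, exact Poisson 95% interval) in library 1 and 750 fragments or 61.9 CPM in library 2. It lay at percentile 99.6 and 99.1 of all genes. Rpl13a, a large subunit protein (chr7:45125563-45128745), followed among the large subunit genes with 65.6 and 53.8 CPM at its start. Rps21 (49.7 and 45.6 CPM) and Rpl37 (49.3 and 40.4 CPM) were also near the top in both libraries. At the lower end, the start of Rps4x, the X-linked gene of a small subunit protein, had 13.2 and 8.99 CPM, and that of Rpl6, a large subunit protein, 13.4 and 5.36 CPM.

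The 2 canonical genes below the all-gene median were Rpl17 (1.59 and 0.907 CPM) and Rpl22 (3.07 and 2.72 CPM), both of the large subunit. For both, the signal lay elsewhere in the window. The fullest 2 kb stretch of Rpl22 had 41.2 and 28.4 CPM and was centred 1400 bp from the start used, near another start of the RefSeq table, whose own 2 kb window had 41.1 and 28.3 CPM. Rpl17 has no RefSeq promoter entry in the table, so the fuller gene end stood in for its start, and its fullest stretch, at 20.1 and 13.1 CPM, was centred 2503 bp away. No promoter entry was found for 20 members in all, 62 of the 69 entries lay at the fuller end of their gene, and the levels of genes without an entry depend on that substitution.

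The 11 paralogs and retrocopies fell into a group with open starts and a group with almost no signal, a split made after their values were seen. Rpl36al, an autosomal copy of Rpl36a, had 43.4 and 32.6 CPM at its start, Rpl22l1, a paralog of Rpl22, had 35.5 and 29.3 CPM, Rps27l, a p53-responsive paralog of Rps27, had 33.7 and 24.0 CPM, and Rpl7l1 had 24.4 and 15.3 CPM. These 4 lay within the range of the canonical genes. The other 7 were Rpl3l, Rpl10l, Rpl32l, Rpl37rt, Rpl39l, Rps23rg1 and Rps27rt. Rpl10l, the testis copy of Rpl10, had 1 fragment (0.106 CPM) at its start in library 1 and 4 (0.330 CPM) in library 2. Rps27rt had 3 fragments in each library, Rpl39l had 8 and 11, and Rps23rg1, the highest of the 7 in library 1, had 15 and 4. Reads from near-identical copies can be assigned to either copy or dropped, a step on which the sources used here are silent. Pseudogenes of the family were counted for comparison. The gene table lists 324 with ribosomal protein symbols, and their bodies held 438 fragments in all in library 1 and 691 in library 2. No fragment was seen in 168 and 111 of them. None of the 324 reached the median of the canonical gene bodies (4.90 and 3.69 CPM per kb), and the highest had 2.49 and 2.37 CPM per kb.

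The genes Fau and Rack1, which the rule misses, had start levels within the range of the canonical genes. Fau, which encodes a ubiquitin-like protein fused to a small subunit protein, had 25.1 and 24.8 CPM, and Rack1, a scaffold on the small subunit, had 29.1 and 12.7 CPM. Rps19bp1 had 17.5 and 11.4 CPM. Among comparison lists, the 78 genes of mitochondrial ribosomal proteins had median start levels of 20.03 and 13.2 CPM, the 55 translation factor genes 30.6 and 22.4 CPM, and 18 ribosome assembly genes, such as Ncl and Npm1 of the nucleolus, 28.6 and 23.8 CPM. A high start level was therefore shared with other genes of the translation machinery.

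Around the starts of the 57 canonical genes with a promoter entry, insertions rose to a single narrow summit just upstream. Within 250 bp of the start they averaged 4.31 insertions per gene in each 50 bp bin, scaled as CPM, in library 1, against 0.0860 beyond 1500 bp, which is 50.1 times as many. In library 2 the values were 3.42 and 0.0816, or 41.9 times. The 17492 genes with an entry averaged 1.77 and 1.32 near the start and 0.0834 and 0.0706 in the flanks. The flanks of canonical and of all genes thus had similar values, and the centres did not. The fullest bin of the canonical genes was centred at -25 bp in both libraries, and the 500 bp upstream held more insertions per bin (3.62 and 2.88) than the 500 bp downstream (1.86 and 1.39). Copies with closed starts had 0.0515 and 0.0330 near the start and no clear summit.

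**Figure D2:**
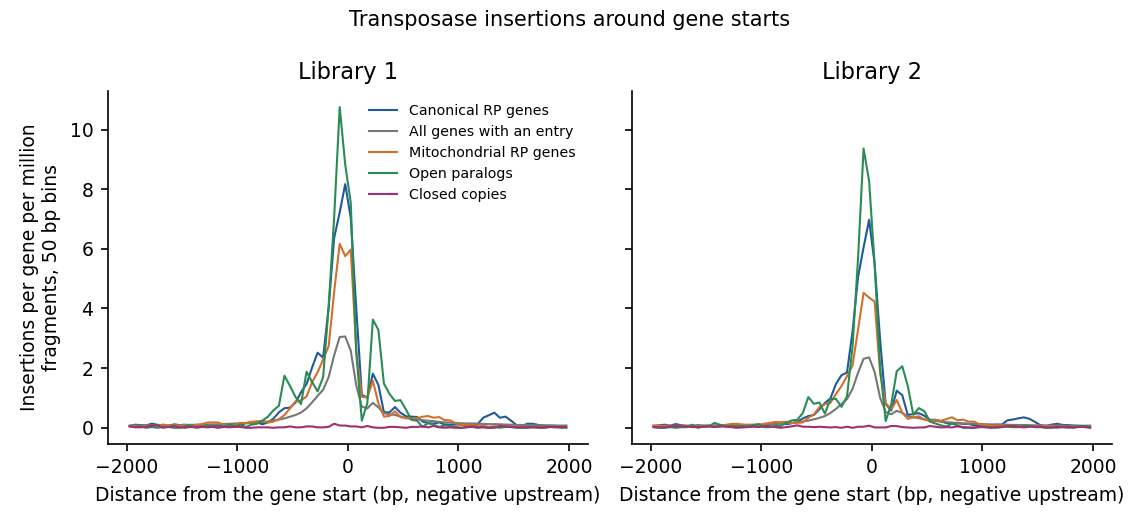
Lines give insertions per gene in 50 bp bins, scaled as CPM, against distance from the gene start, for canonical ribosomal protein (RP) genes, all genes, mitochondrial RP genes, and the open and closed copies, in each library. The canonical line peaks at -25 bp above the line of all genes, and the line of the closed copies stays near 0.

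Fragments shorter than the DNA wrapped around a nucleosome made up 67.4% (66.6 to 68.2, Clopper-Pearson 95% interval) of the fragments near canonical starts in library 1 and 67.6% (66.8 to 68.4) in library 2. For all genes with an entry the shares were 71.2% and 69.2%, and for mitochondrial ribosomal protein genes 67.7% and 68.2%. The starts of canonical genes thus had a slightly smaller share of short fragments than starts at large, and a larger one than all fragments of the kept cells (61.0% and 62.5%). The 2 libraries differed by less at canonical starts than over all starts.

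In the RefSeq promoter entries (250 bases before to 50 after the start), the ETS core had the widest gap to other promoters, in percentage points, of the patterns searched. GGAAGT or CCGGAA, on either strand, stood in 46 of the 67 entries of canonical genes (68.7%, Clopper-Pearson 56.2 to 79.4) and in 35.1% of all 21263 entries. The 2 patterns overlap in the run CCGGAAGT. Alone, GGAAGT was in 47.8% against 24.8% and CCGGAA in 49.3% against 18.7%. Each of these gaps is narrower than that of the looser pyrimidine pattern below. The GC box GGGCGG was in 61.2% against 46.2%, the YY1 core AAGATGGC in 10.4% against 3.05%, and the E-box CACGTG in 11.9% against 7.84%. The TATA box letters TATAAA were in 8.96% against 12.6%. A C at the annotated start followed by at least 4 pyrimidines was found in 13 of 67 entries (19.4%) and in 2.21% of all. A looser pattern, added after seeing the letters, of C and at least 7 pyrimidines within 30 bases of the start, was in 50.7% against 18.6%. Genes with several starts have several entries, which share letters. The entry of Rps19, the most open member, has no ETS core in the stretch printed above, whereas that of Rps18 has 4 matches, on both strands, and a start level of 31.7 and 28.6 CPM, so the number of matches and the start level did not go together in this pair.

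The entries of canonical genes had a median of 21 CpG dinucleotides in 300 bases and a GC content of 58.3%, against 13 and 56.3% over all entries. The 8 entries of the copies with closed starts had a median of 6.5 CpG (2 to 17), and the 5 entries of the paralogs with open starts 29 (16 to 42). The ranges of the open and closed copies overlap, and both groups are small. Outside the run shared by Rps27 and Rps27rt, no other parent and copy examined (Rpl37 and Rpl37rt, Rpl10 and Rpl10l, Rpl39 and Rpl39l) shared more than 8 bases in a row within their entries.

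The summed signal of the members was used to ask how level the group is across cell classes. The windows (gene body and 2 kb on each side) of the 89 members merge into 88 stretches that cover 691 kb. They held 0.314% of all fragments of the kept cells of library 1 and 0.239% in library 2. In library 1 the share was 0.321% (0.317 to 0.326, exact Poisson) in Kupffer-like, 0.328% (0.319 to 0.337) in endothelial-like, 0.345% in monocyte-like, 0.302% in stellate- or fibroblast-like and 0.248% in hepatocyte-like cells (28 cells). In library 2 it was 0.296%, 0.278%, 0.340% and 0.275% in the first 4 of these classes, and 0.154% in an unnamed cluster of 138 cells whose median share of fragments in peaks was 34.5%. Kupffer-like and endothelial-like cells differed by less than their counting intervals in library 1 but not in library 2. The monocyte-like name is uncertain, since the dendritic cell list scored 0.77 in that cluster beside 0.98 for the monocyte list.

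Scaled by the fragments near gene starts, the full range over classes and libraries narrowed, though not every gap did. Per 1000 such fragments the windows held 8.57 (8.44 to 8.70) and 8.44 (8.25 to 8.63) fragments in Kupffer-like cells of libraries 1 and 2, 8.26 and 8.04 in endothelial-like, 8.42 and 8.93 in monocyte-like, 7.91 and 8.17 in stellate- or fibroblast-like, 7.35 in hepatocyte-like and 7.27 in the unnamed cells. The gap between the libraries over all kept cells, 0.314% against 0.239%, became 8.37 against 8.09. Some orders turned. In library 1 Kupffer-like cells lay below endothelial-like cells by share (0.321% against 0.328%) and above them when scaled. Monocyte-like and stellate- or fibroblast-like cells were lower in library 2 by share and higher there when scaled. The share of fragments near starts, 37.5% in library 1 and 29.5% in library 2, moved with the summed share. With fragments in pile-ups left out, the share in library 2 was 0.324% in Kupffer-like and 0.317% in endothelial-like cells. The library 1 shares of 0.321% and 0.328% are those with pile-ups kept.

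**Figure D3:**
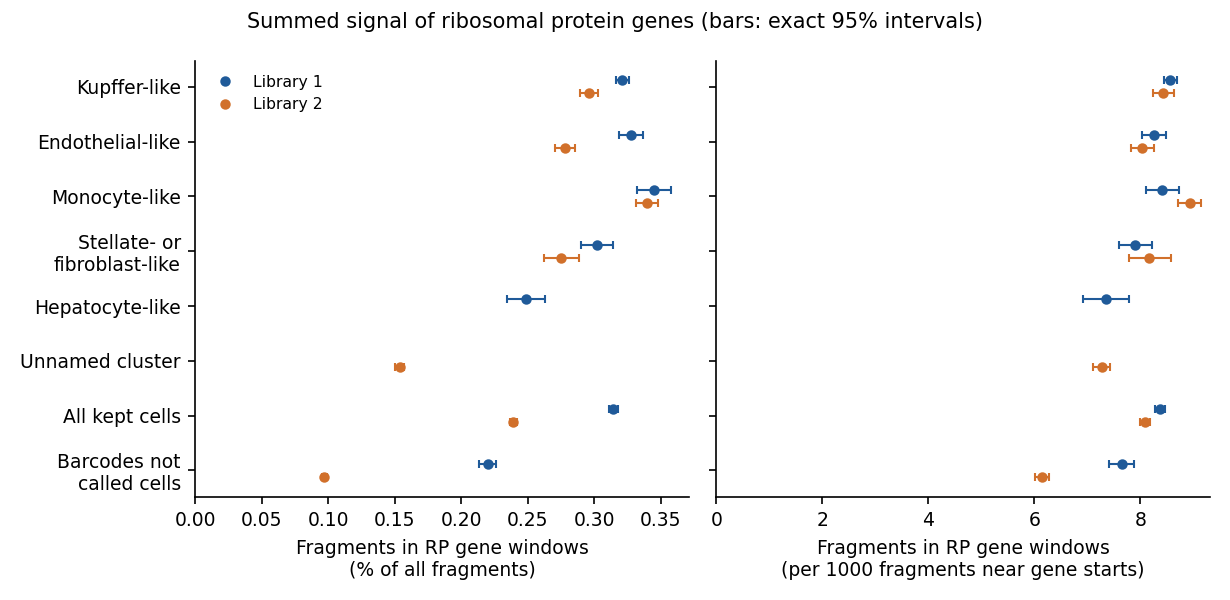
Points are the fragments in the merged windows of the 89 ribosomal protein (RP) genes, as a percent of all fragments (left) and per 1000 fragments near gene starts (right), by cell class and library, with exact 95% counting intervals. On the left library 2 lies below library 1 in all classes present in both, and on the right the kept classes lie between 7.27 and 8.93.

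Kupffer-like and endothelial-like cells were next compared gene by gene within each library, as the log2 ratio of window fragments relative to the median gene, with a call when the ratio passed 1.5-fold. Few members were called. In library 1, 83 members reached 50 fragments, of which 5 were higher and 2 lower in Kupffer-like cells, 8.43% of the members against 38.4% of all genes (20.9% higher and 17.5% lower). In library 2, 82 members reached the minimum, of which 10 were higher and 3 lower, 15.9% against 39.9% of all genes (19.6% higher and 20.3% lower). The members that did not reach it were the 6 closed copies other than Rpl3l and, in library 2, Rpl6, so all canonical genes of library 1 and all but 1 of library 2 were included. The median ratio of the members was -0.05 and 0.04, and their summed ratio -0.03 (-0.07 to 0.02) and 0.07 (0.02 to 0.12). Past 2-fold lay 1 member in library 1, against 22.1% of all genes, and 2 in library 2, against 21.3%.

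The middle 50% of member ratios spanned 0.55 and 0.48 on the log2 scale, against 0.86 and 0.90 over all genes. The members' median count, 247 and 138 fragments, was a little below that of all genes, 276 and 176. The gap in spread was smaller in windows of 1 length. Within 1 kb on each side of the start, the span was 0.57 and 0.51 for members and 0.59 and 0.60 for all genes. The share called there remained lower, at 8 of 80 members (10.0%) against 24.5% of all genes in library 1, and at 7 of 77 (9.09%) against 23.8% in library 2.

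**Figure D4:**
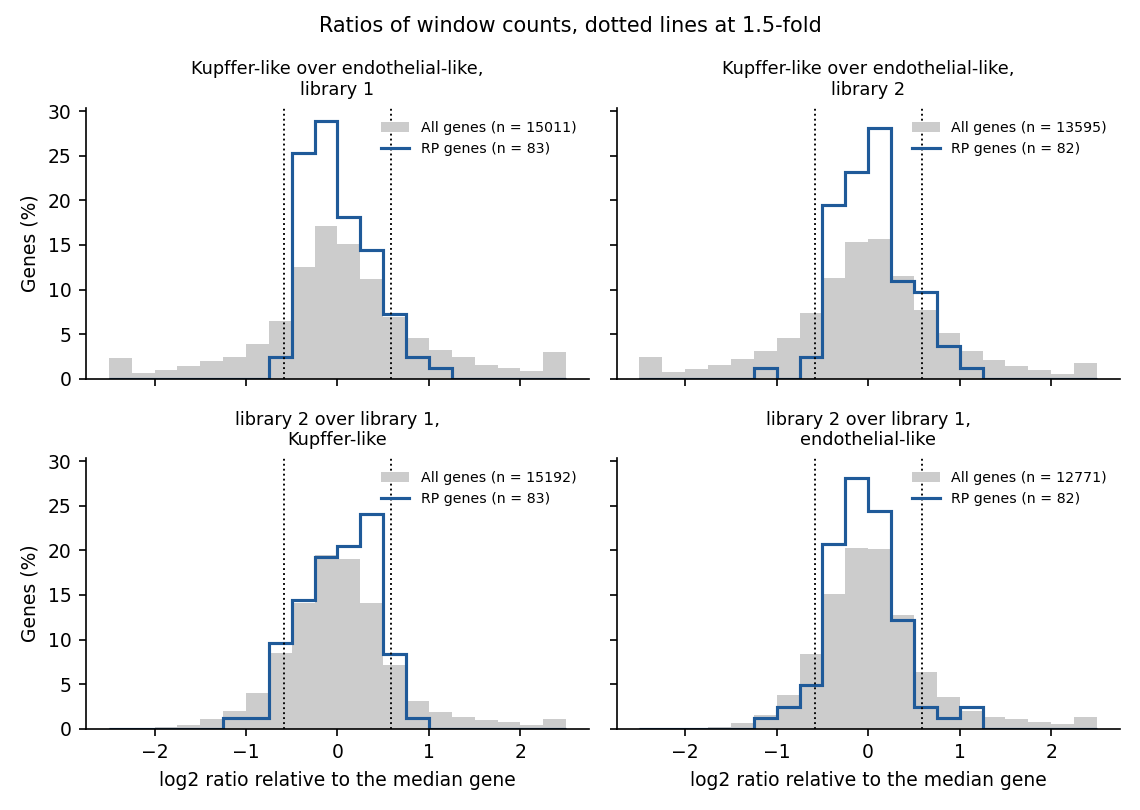
Histograms give the percent of genes by log2 ratio relative to the median gene in bins of 0.25, for all genes (grey) and ribosomal protein (RP) genes (blue line), in the 4 comparisons; values past the ends are counted in the end bins, and dotted lines mark 1.5-fold. The RP genes gather near 0, with 8.43%, 15.9%, 9.64% and 12.2% past the lines against 38.4%, 39.9%, 26.7% and 25.7% of all genes.

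Of the 82 members at the minimum in both libraries, 4 were called in the same direction and none in opposite directions. The 4 were Rpl37a, Rps27a, Rps9 and Rpl3l, all higher in Kupffer-like cells. The matching counts over all genes were not made, so these numbers have no background beside them. Over the 82 members the ratios of the 2 libraries had a Pearson correlation of 0.51, and over 13352 genes 0.69. Genes are not independent replicates, and these values describe the 2 libraries.

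Rpl37a, a large subunit protein with a zinc-binding fold (chr1:72711260-72713813), had 24.6 window CPM in Kupffer-like and 15.9 in endothelial-like cells of library 1 (137 and 25 fragments), and 26.6 and 13.7 in library 2 (67 and 28 fragments). The log2 ratios were 0.61 (0.01 to 1.31) and 0.91 (0.27 to 1.62). The gap lay at the start, where the ratios were 0.61 and 1.06. Rps27a, which encodes ubiquitin fused to a small subunit protein (chr11:29545842-29548040), had 45.0 and 26.7 window CPM in library 1 and 32.1 and 15.2 in library 2. Its ratios were 0.74 (0.28 to 1.26) and 1.04 (0.44 to 1.70), and 0.72 and 0.67 at its start. Both genes were thus higher in Kupffer-like cells in each library in the whole window and at the start.

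For Rps9, a small subunit protein (chr7:3703954-3706897), the window ratio was 1.12 (0.68 to 1.62) in library 1 and 0.73 (0.29 to 1.199) in library 2, with 61.3 against 28.0 and 51.5 against 30.4 window CPM. At its start the ratio was 0.37 (-0.19 to 1.01) and -0.23 (-0.81 to 0.36), so the direction did not hold there in library 2. Outside the start window lay 212 of 341 Kupffer-like fragments and 14 of 44 endothelial-like fragments in library 1, and 76 of 130 and 12 of 62 in library 2. One 500-base bin just past the 3' end of the gene, at chr7:3706954-3707453, held 163 and 56 Kupffer-like fragments (29.3 and 22.2 CPM) and 8 and 10 endothelial-like fragments (5.08 and 4.91 CPM). Monocyte-like cells had 22.9 and 21.8 CPM in this bin, and stellate- or fibroblast-like cells 1.25 and 1.68 CPM, from 1 fragment in each library. In the bin at the Rps9 start the 4 classes lay between 14.6 and 25.1 CPM in both libraries, in no such order. The next gene beyond the bin is Pirb, an inhibitory receptor of myeloid and B cells, on the minus strand. Its 3' end lies 5608 bp past the end of Rps9, and its start lies farther away, at chr7:3720382. This bin was singled out after its values were seen.

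**Figure D5:**
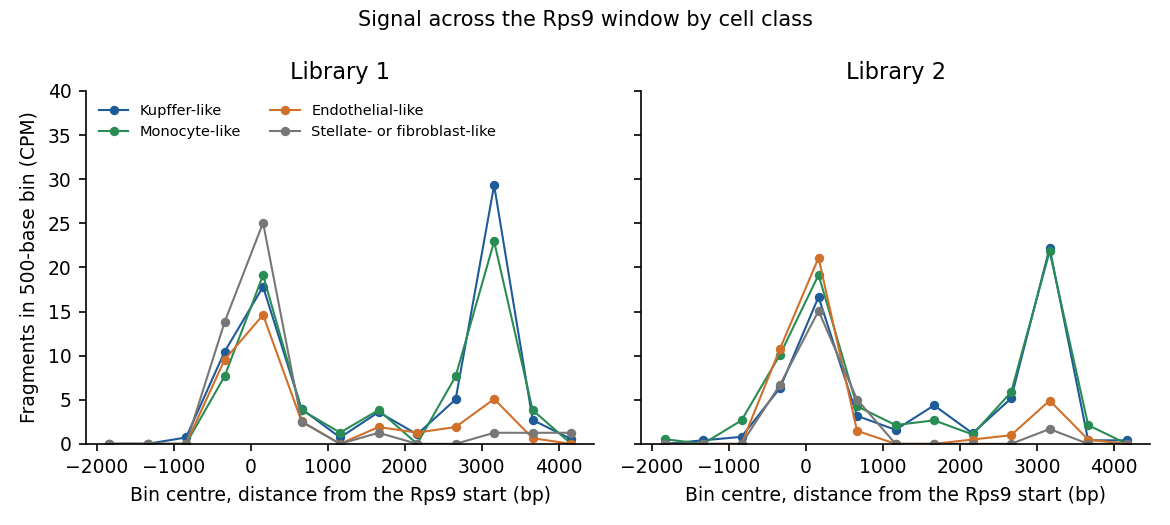
Points give CPM in 500-base bins across the Rps9 window, by distance of the bin centre from the gene start, for 4 cell classes in each library. All 4 classes share the summit at the start, and Kupffer-like (29.3 and 22.2 CPM) and monocyte-like cells (22.9 and 21.8 CPM) have a further summit 3162 bp downstream, where endothelial-like cells have 5.08 and 4.91 CPM.

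Rpl3l, the striated muscle paralog of Rpl3 (chr17:24727826-24736143), was called through fragments outside its start. Its window ratio was 0.82 (0.39 to 1.30) and 0.71 (0.28 to 1.16), yet its start held 1 Kupffer-like and 1 endothelial-like fragment in library 1 and none in library 2. Of 302 Kupffer-like window fragments in library 1, 301 lay outside the start. The window reaches 2 kb past each end of the gene, and it overlaps the windows of Ndufb10 and Msrb1. The bin at chr17:24736326-24736825 held 183 and 111 Kupffer-like and 40 and 58 endothelial-like fragments, and that at chr17:24737326-24737825 held 82 and 19 against 1 and 2. Both bins lie past the 3' end of the gene. The call therefore describes that stretch, not the Rpl3l start. Windows of 62 members overlap that of another gene, so a window ratio can hold a neighbour's signal, while the start ratio is less exposed to it.

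Other members were called in 1 library only. In library 1, Rps13 (small subunit) was higher in Kupffer-like cells, at 0.94 (0.39 to 1.59), and Rps6, the small subunit protein phosphorylated by S6 kinase, and Rpl7 were lower, at -0.69 (-1.06 to -0.29) and -0.59 (-0.90 to -0.26). In library 2, Rps13 was at -0.01, Rps6 at -0.22 and Rpl7 at -0.05, each with an interval that includes the median gene. Higher in library 2 only were Rpl23a at 0.94, Rps27 at 0.88, Rpl11 at 0.73, Rpl14 at 0.70, Rps15a at 0.68 and Rpl10a at 0.61. Lower there were Rpl35a at -1.05 (-1.74 to -0.40), Rpl37 at -0.74 and Rps3 at -0.68. The 6 higher genes also had ratios above 0 in library 1, from 0.10 (Rps27) to 0.56 (Rpl14), and the 3 lower ones ratios below 0, from -0.14 (Rpl35a) to -0.48 (Rps3). Rpl11, which binds Mdm2 when ribosome assembly is disturbed, had 33.3 and 24.8 window CPM in library 1 and 31.7 and 18.6 in library 2. Whether any of these ratios differed between libraries was not tested.

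Between the libraries, within a class, a smaller share of members than of all genes again passed 1.5-fold. In Kupffer-like cells, 3 of 83 members were higher and 5 lower in library 2 (9.64%), against 26.7% of all genes (13.7% higher and 13% lower), and in endothelial-like cells 4 of 82 were higher and 6 lower (12.2%), against 25.7% (14.3% higher and 11.4% lower). Past 2-fold lay 1 member in Kupffer-like cells, against 10.5% of all genes, and 3 in endothelial-like cells, against 9.69%. The middle 50% of member ratios spanned 0.58 in Kupffer-like and 0.44 in endothelial-like cells, against 0.68 and 0.64 over all genes. In Kupffer-like cells the interval lay above the median gene for 19 members and below for 12 (3688 and 3156 of 15192 genes). In endothelial-like cells these numbers were 4 and 6 (2340 and 2020 of 12771 genes). The summed ratio of library 2 over library 1 was 0.08 (0.04 to 0.12) in Kupffer-like and -0.04 (-0.10 to 0.01) in endothelial-like cells. These ratios are relative to the median gene, which lay at -0.20 and -0.19. At gene starts 11 of 80 members (13.8%) were called against 24.0% of all genes in Kupffer-like cells, and 8 of 74 (10.8%) against 15.5% in endothelial-like cells. By role, the Kupffer-like calls were 3 higher and 1 lower of 31 small subunit genes and 0 higher and 4 lower of 43 large subunit genes. The endothelial-like calls were 4 higher and 3 lower of 31 small subunit genes, 0 higher and 1 lower of 42 large subunit genes, and 1 lower of 3 stalk genes (Rplp2). Fragments in peaks and pile-ups differ between the libraries. With pile-ups masked the summed ratio was 0.127 in Kupffer-like and 0.0161 in endothelial-like cells, and in endothelial-like cells at 50% or more in peaks it was 0.0376, so its sign turned in that class. Cluster make-up also differs between the libraries, and its part in these ratios was not tested.

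Rps3a1 and Rpl19 were among the members called in the same direction in both classes. Rps3a1, a small subunit protein near the exit site of the messenger RNA (chr3:86137940-86142668), was higher in library 2, with 48.8 against 37.1 window CPM in Kupffer-like cells (ratio 0.60, 0.26 to 0.92) and 41.7 against 27.3 in endothelial-like cells (0.80, 0.26 to 1.37). At its start the ratios were 0.73 and 0.72.

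Rpl19, a large subunit protein with a long C-terminal helix (chr11:98022003-98030493), was lower in library 2 in the whole window, at -0.63 (-1.05 to -0.24) in Kupffer-like and -0.87 (-1.41 to -0.35) in endothelial-like cells. At its start it was at 0.16 (-0.40 to 0.68) in Kupffer-like and -1.32 (-2.08 to -0.63) in endothelial-like cells. In Kupffer-like cells 163 of 259 window fragments of library 1 lay outside the start, and 23 of 66 of library 2. The bin at chr11:98023003-98023502, within the annotated gene at -3458 bp from the start used, held 98 Kupffer-like fragments in library 1 (17.6 CPM) and 12 in library 2 (4.76 CPM), against 4 and 1 in endothelial-like cells. The lower window value in Kupffer-like cells therefore came with the fragments of this stretch, which was singled out after its values were seen.

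Further members were called between the libraries in 1 class, and whether the classes differ in these ratios was not tested. In Kupffer-like cells Rps12 (0.88, 0.58 to 1.17) and Rps23 (0.68, 0.32 to 1.03), which lies at the decoding centre, were higher in library 2, and Rpl32 (-1.04, -1.60 to -0.55), Rpl35a (-0.95, -1.56 to -0.41) and Rpl6 (-0.68, -1.41 to -0.05) were lower. Rack1 was lower too, at -1.02 (-1.53 to -0.56), with 17.4 against 40.8 window CPM, and was at -0.50 (-1.17 to 0.16) in endothelial-like cells. In endothelial-like cells Rpsa, the laminin receptor homolog of the small subunit, was higher in library 2 with 42.2 against 23.5 window CPM (1.03, 0.47 to 1.64), as were Rps16 (1.01, 0.42 to 1.66) and Rps13 (0.59, -0.10 to 1.32). Lower there were Rps27 (-0.76), Rpl7l1 (-0.68), Rplp2 (-0.63) and Rps27a (-0.61), of which the interval of Rps27a includes the median gene. Rpsa and Rps16 were at 0.52 in Kupffer-like cells, and Rps12 and Rps23 at 0.27 and 0.32 in endothelial-like cells, on the same side of the median gene. Rpl6, with 17 and 32 fragments in endothelial-like cells of libraries 2 and 1, fell short of the minimum there and was at -1.07 (-2.03 to -0.20), and Rpl7l1 was at -0.58 (-0.996 to -0.20) in Kupffer-like cells, just short of the 1.5-fold line.

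The comparison lists were close to the median gene as well. Between Kupffer-like and endothelial-like cells, 11 of 78 mitochondrial ribosomal protein genes (14.1%) were called in library 1 and 13 of 68 (19.1%) in library 2. Of the translation factor genes 5 of 52 (9.62%) and 12 of 51 (23.5%) were called, and of the ribosome assembly genes 3 of 18 (16.7%) in both libraries. All of these shares were below the 38.4% and 39.9% of all genes, so a low share of calls was not particular to the cytosolic ribosomal proteins. Their medians lay between -0.13 and 0.14 in both libraries.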

How the data were processed

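Both libraries came as 1 table of unique fragments and 1 table of barcodes. The authors deposited counts, not normalized: read pairs per fragment, and fragments per barcode in total, in peaks, near starts and in blacklisted regions, with their cell calls (1 or 0). The submitters' processing notes name build GRCm38.p5, Signac 0.2.4, Seurat, R 3.6.1, Cell Ranger and Cell Ranger ATAC 1.2.0. The aligner settings, the treatment of reads with several matches and the cell-calling threshold are not given in the sources used here. A RefSeq table of GRCm38.p6, which shares primary coordinates, gave genes and, for 17492 of them, starts with strand. All 124 marker symbols matched.

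Each fragment was counted once. Called cells were kept at 1000 or more fragments in peaks, a share in peaks of 15% or more and a blacklisted share of 5% or less (609 of 637 and 562 of 575). Fragments in 343850 bins of 5 kb seen in at least 10 cells went through TF-IDF and SVD (30 components, scikit-learn 1.9.0, without the first) and were clustered with 20 neighbours at Leiden resolution 0.5 (leidenalg 0.10.2). A cluster took the name of a marker list with a score of at least 0.25, a lead of 0.2 and 3 markers in 10% of its cells. Doublets were marked (7 and 6 by simulated pairs in scanpy 1.11.5, 68 and 85 by overlap at q 0.01) and kept.

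Window counts cover the gene body and 2 kb on each side, start counts 1 kb on each side of the outermost RefSeq start or, without one, of the gene end with more fragments. Ratios add 0.5 to both counts, are relative to the median gene with at least 50 fragments and carry exact conditional binomial 95% intervals. On simulated data drawn from the real counts the same calculation was tested. Members and lists were chosen with earlier results of these data known. Rpl32l, Rpl37rt and Rps23rg1 were put with the paralogs from the table's symbols. Named genes are the highest and lowest levels per role, the 3 highest and 3 lowest ratios per comparison and all copies; the other genes called, Rps19, Rps18, Rpl17 and Rpl22 were added after their values were seen. Results of a few single genes are not reported here. Alternatives covered cells, windows, pile-ups, clustering, doublets, depth, minimum and fold.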

Additional observations from a re-analysis of the deposited data

Results flagged for a closer look

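Barcodes that were not called cells, which enter no comparison above, also held fragments in the windows of the ribosomal protein genes. In library 1 the share was 0.220% of 1914615 fragments, and in library 2 it was 0.0970% of 9480832 fragments, against 0.314% and 0.239% in the kept cells. Per 1000 fragments near gene starts these barcodes had 7.65 (7.42 to 7.88) and 6.15 (6.02 to 6.27) fragments in the windows, below the 8.37 and 8.09 of the kept cells. The share of their fragments near starts was 28.7% and 15.8%.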

How the results depend on the processing

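No paired analysis was possible because each genotype has 1 library and no result comes from a test across samples. Clustering without the members' own bins and at Leiden resolution 1 moved no count or summed value beyond its interval or 1.5 times. Of 83 members, 7 were past 1.5-fold between Kupffer-like and endothelial-like cells in library 1. The count became 12 of 82 in gene bodies without flanks (14.6%, against 42.7% of all genes). It became 11 of 83 without marked doublets (13.3% against 40.3%) and 17 of 73 with cells thinned to 5000 fragments (23.3% against 40.7%). With no minimum of fragments it was 11 of 89 (12.4% against 44.5%), and past 2-fold it was 1. The 13 of 82 in library 2 became 7 of 77 at gene starts (9.09% against 23.8%), 6 of 55 in gene bodies (10.9% against 44.2%) and 2 past 2-fold. Between libraries, the 8 of 83 in Kupffer-like cells became 15 of 81 in gene bodies (18.5% against 29.5%) and 14 of 83 without marked doublets (16.9% against 27.3%). They became 14 of 89 with no minimum (15.7% against 37.8%) and 1 past 2-fold. In endothelial-like cells the 10 of 82 (12.2%) became 4 of 48 in gene bodies (8.33% against 30.2%) and 3 of 22 thinned (13.6% against 29.7%). With at least 100 fragments 6 of 54 were called (11.1% against 22.1%), and 3 lay past 2-fold. Past 2-fold, all genes gave 22.1%, 21.3%, 10.5% and 9.69% in these comparisons.

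The summed class ratio of library 2, 0.07, was 0.00319 with all called cells, -0.0215 in cells whose share in peaks was 50% or more and 0.0178 at gene starts. The summed library ratio of Kupffer-like cells, 0.08, was 0.0343 with all called cells, 0.127 with pile-ups masked, 0.0382 thinned and 0.0267 with no minimum. That of endothelial-like cells, -0.04, was 0.0376 at 50% or more in peaks, 0.0161 with pile-ups masked, 0.0177 at gene starts and -0.0995 thinned. These sums lie within 0.13 of the median gene. The side of the class ratio and of the endothelial-like library ratio depends on the setting. The Kupffer-like library ratio stayed above the median gene in the settings listed. Its interval included the median gene with all called cells, when thinned and with no minimum.

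The summed share in Kupffer-like cells of libraries 1 and 2 was 0.253% and 0.242% at gene starts, 0.158% and 0.145% in gene bodies, and 0.857 and 0.844 per 100 fragments near starts. In endothelial-like cells it was 0.270% and 0.234% at gene starts, 0.156% and 0.133% in gene bodies, and 0.826 and 0.804 per 100 fragments near starts. These differ by construction. The share of Kupffer-like cells of library 2 was 0.278% with all called cells, 0.306% at 50% or more in peaks and 0.324% with pile-ups masked. That of endothelial-like cells of library 2 was 0.317% in both of the latter settings, 0.271% without marked doublets and 0.268% thinned.

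The direction turned for Rps9 between classes in library 2 (-0.23 at the start) and for Rpl19 between libraries in Kupffer-like cells (0.16 at the start), where fragments outside the start set the window value. Among the other named-gene ratios and the member medians, counted per comparison and setting, 47 moved and 1479 stayed the same. Where a cause is not named it was not tested. Depth limits single genes: the median interval of a member ran 0.46 and 0.50 to each side between classes, on the log2 scale. Differences smaller than these are mostly not detectable at this depth. In library 1 the interval lay above the median gene for 10 of 83 members and below for 10 (3771 and 3521 of 15011 genes). In library 2 these numbers were 15 and 5 of 82 members (3438 and 3369 of 13595 genes). Some members short of 1.5-fold thus had an interval off the median gene.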
